A study of Homo sapiens with 14 samples.

Results

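The zinc finger genes of chromosome 19q13.41 were taken as the protein-coding genes with a symbol starting ZNF whose body overlaps chr19:52206066-54466164 of the hg19 genome build. Of 63677 gene IDs in the gene count tables, 19488 were protein-coding, 509 of those carried a ZNF symbol and 39 met the rule. These 39 members were described in 12 bulk RNA-seq libraries, and the 36 of them listed there were also described in nuclei of 1 gastruloid preparation.

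Many genes of this cluster encode KRAB zinc finger proteins, in which an array of zinc fingers reads a DNA sequence and the KRAB domain recruits the corepressor TRIM28. TRIM28 in turn brings in SETDB1, a histone methyltransferase that marks chromatin for silencing, most often at transposable elements (TEs). Such genes arose by repeated duplication, and this cluster also holds many copies of LTR5, the long terminal repeat of the retrovirus HERV-K, of which LTR5B is an older and LTR5_Hs a younger subfamily.

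The study differentiated human embryonic stem cells (hESC) and repressed LTR5 elements with dCAS9-KRAB, a Cas9 without cutting activity joined to a KRAB domain and delivered by a lentiviral vector. The hESC libraries (n = 2) came from H9 cells kept in mTeSR Plus on Matrigel. The endoderm control libraries (n = 3) came from cells with dCAS9-KRAB and no sgRNA after 3 days in 100 ng/ml Activin A, with CHIR-99021, a GSK-3 inhibitor that activates WNT signalling, at 5 µM on the first day and 0.5 µM on the second. The endoderm sgRNA libraries (n = 3) came from cells that were differentiated in the same way and also carried an sgRNA designed on LTR5B. The foregut control and foregut sgRNA libraries (n = 2 each) came from 3 days of endoderm followed by 3 days of foregut culture. The foregut libraries were grouped by their titles, because other label fields call the foregut controls undifferentiated hESC and the foregut sgRNA samples endoderm without an sgRNA. Their labels also name both the H9 and H1 lines without saying which was used. Gastruloids, aggregates that imitate aspects of gastrulation, were made from 800 H9 cells per well with 3 µM CHIR-99021 and, for 18 h, 10 µM Rock inhibitor, with collection at 72 h. Transcripts and open chromatin came from 1 joint preparation. The study calls its replicates biologically independent but does not say which libraries of a group were separate cultures, so the p-values measure only the spread between these samples.

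The bulk libraries held 23539769 and 22557988 gene reads in hESC, 19666076, 21534304 and 16376503 in endoderm control, and 16662023, 19632624 and 11583063 in endoderm sgRNA. They held 32641546 and 37152434 gene reads in foregut control and 31850493 and 20811663 in foregut sgRNA. Levels are given in CPM, the read counts scaled to a common library size by TMM over all 12 libraries, and 3 counts, the floor used for a count of 0, equal 0.0770 to 0.252 CPM. Defining markers were then compared with the titles. The endoderm gene SOX17 was at 0 in both hESC libraries, and the 8 endoderm markers that were matched summed to 5999, 5465 and 5969 CPM in endoderm control, with CER1 the most abundant. In the foregut controls NANOG was at 0 in both libraries, POU5F1 measured 2.53 and 4.34 CPM, and TTR, a carrier protein of liver and other foregut derivatives, measured 1539.6 and 1954 CPM. LIN28A and SOX2 did not set them apart from hESC, at 801 and 577 CPM and 191 and 142 CPM in foregut control against 473 and 925 CPM and 153 and 163 CPM in hESC. The 10 pluripotency markers summed to 1049.8 and 770.1 CPM in foregut control. NANOG, POU5F1 and TTR thus differ from what the label undifferentiated hESC would give, and whether the titles are right was not tested further.

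Quality measures differed between the groups. Mitochondrial genes took 25.5% and 16.9% of gene reads in hESC, 8.30%, 13.7% and 14.4% in endoderm control, 9.97%, 9.16% and 13.3% in endoderm sgRNA, 29.0% and 17.6% in foregut control, and 34.7% and 22.4% in foregut sgRNA. Genes with a read numbered 17357 and 17926 in foregut control and 17378 and 15005 in foregut sgRNA, against 19678 to 20973 in the other libraries. Of genes with 50 or more reads in 1 foregut sgRNA library, 4.01% had 0 reads in the other. The members among them were ZNF577, ZNF610, ZNF600, ZNF525 and ZNF331. The share over all genes was 0.962% in foregut control and at most 0.0265% in any pair of hESC or endoderm libraries. The foregut libraries were deposited later than the others, so deposit and tissue cannot be told apart.

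Along the chromosome the members run from ZNF577 (ENSG00000161551), whose body starts at position 52308069, to ZNF331 (ENSG00000130844), whose body ends at position 54083523. They fall into 3 blocks. The centromeric flank, the first 1 Mb of the interval, holds 20 members from ZNF577 to ZNF83. The core holds 8 members from ZNF611 to ZNF816, and the telomeric flank, the last 1 Mb, holds 11 from ZNF160 to ZNF331. ZNF534 and the readthrough gene ZNF816-ZNF321P had 0 reads in every bulk library, which left 37 members with reads. ZNF888, ZNF665 and ZNF578 stayed below 50 reads in every library, at maxima of 19, 45 and 48.

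Neighbouring members are hard to separate in short reads. Exons overlap on the same strand between ZNF577 and ZNF649, ZNF432 and ZNF841, ZNF808 and ZNF701, ZNF28 and ZNF468, and ZNF816 and its readthrough gene. The strand setting of the counting is not stated, so the counts of these members, and of members with an antisense neighbour, are uncertain. Shared sequence adds to this, since 96.3% of the 50-base words in ZNF816-ZNF321P exons, 20.1% in ZNF578, 17.04% in ZNF701, 16.8% in ZNF808 and 16.4% in ZNF888 also occur in another gene's exons, against 8.55% in ZNF611 and 8.50% in ZNF468. Part of this sharing is with genes at the same place, as 74.2% of the ZNF816-ZNF321P words occur in ZNF321P, whose exons overlap it on the same strand. In ZNF578 and ZNF701, 11.9% and 8.55% of the words occur in a gene that overlaps them on the other strand. Only uniquely mapped reads were counted, so reads from stretches repeated at another place can be missing. Reads from overlapping genes depend on how they were assigned. The 0 reads of ZNF816-ZNF321P thus do not show that it was silent.

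LTR5 copies run through the cluster. The TE table places 49 LTR5 integrants in the interval, 36 of them LTR5B and 11 LTR5_Hs, and 17 of 39 members have at least 1 in their body (14 have an LTR5B). The 14 are ZNF577, ZNF350, ZNF614, ZNF432, ZNF610, ZNF611, ZNF600, ZNF28, ZNF468, ZNF320, ZNF816-ZNF321P, ZNF765, ZNF761 and ZNF813, so that the core holds 6 of them.

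Promoters were compared because the gastruloid peaks bear on them. RefSeq promoters (GRCh38.p14, 250 bases before to 50 after the start) were found for 32 of 39 members, and 28 of these (87.5%) overlapped an accessible gastruloid peak. The share was 91.9% for 186 other ZNF genes of chromosome 19 and 77.8% for 15318 protein-coding genes. ZNF880, ZNF528, ZNF534 and ZNF578 had a promoter in the table and no peak on it. The promoters of ZNF611 (chr19:52734995-52735294, minus strand), ZNF808 (chr19:52527418-52527717, plus strand) and ZNF468 (chr19:52857570-52857869, minus strand) are printed with each CpG in capitals, since all 3 carried a peak and the study names these genes.
ZNF611: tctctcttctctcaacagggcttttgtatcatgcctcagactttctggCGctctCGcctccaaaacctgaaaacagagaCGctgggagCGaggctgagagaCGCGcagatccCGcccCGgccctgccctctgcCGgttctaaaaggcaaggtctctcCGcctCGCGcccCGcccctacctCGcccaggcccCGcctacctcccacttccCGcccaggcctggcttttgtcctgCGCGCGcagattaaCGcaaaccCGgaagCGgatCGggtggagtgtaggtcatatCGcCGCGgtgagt
ZNF808: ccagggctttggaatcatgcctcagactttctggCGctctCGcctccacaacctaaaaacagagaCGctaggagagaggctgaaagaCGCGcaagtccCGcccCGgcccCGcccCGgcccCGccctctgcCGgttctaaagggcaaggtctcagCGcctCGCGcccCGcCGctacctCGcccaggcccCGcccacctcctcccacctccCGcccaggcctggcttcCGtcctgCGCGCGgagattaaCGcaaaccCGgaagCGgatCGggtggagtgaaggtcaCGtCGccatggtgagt
ZNF468: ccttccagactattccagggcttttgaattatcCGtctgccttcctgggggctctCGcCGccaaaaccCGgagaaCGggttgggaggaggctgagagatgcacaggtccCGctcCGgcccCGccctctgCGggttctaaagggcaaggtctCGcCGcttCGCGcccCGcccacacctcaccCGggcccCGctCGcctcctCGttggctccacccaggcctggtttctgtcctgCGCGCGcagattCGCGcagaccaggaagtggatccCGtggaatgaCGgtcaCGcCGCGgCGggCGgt
These 3 hold 26, 29 and 30 CpG, where the median over the 32 member promoters was 25 and that over protein-coding promoters was also 25.

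Levels were moderate in every group. Of the 39 members, 32 averaged over 1 CPM in hESC, 34 in endoderm control and 33 in foregut control, and 13, 16 and 7 averaged over 10 CPM. The median member with reads measured 7.85 CPM in hESC, 9.18 in endoderm control and 6.498 in foregut control, while the median protein-coding gene with reads measured 12.0, 11.5 and 13.2 CPM. Scaled by exon length, which is needed to rank genes, ZNF649 led in endoderm control at 8.88 ± 0.500 CPM per kb (SD, n = 3). ZNF761 followed at 6.38 ± 1.104 and ZNF614 at 5.36 ± 0.933 CPM per kb, which overlap within 1 SD, and then ZNF160 at 4.04 ± 0.788 and ZNF613 at 3.42 ± 0.565. In hESC the order per kb was ZNF649 (10.5), ZNF616 (5.96), ZNF761 (4.38), ZNF614 (4.28) and ZNF766 (3.76). In foregut control none of these led, and the order became ZNF880 (4.24), ZNF480 (3.67), ZNF432 (3.44), ZNF816 (2.87) and ZNF415 (2.72).

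**Figure D1:**
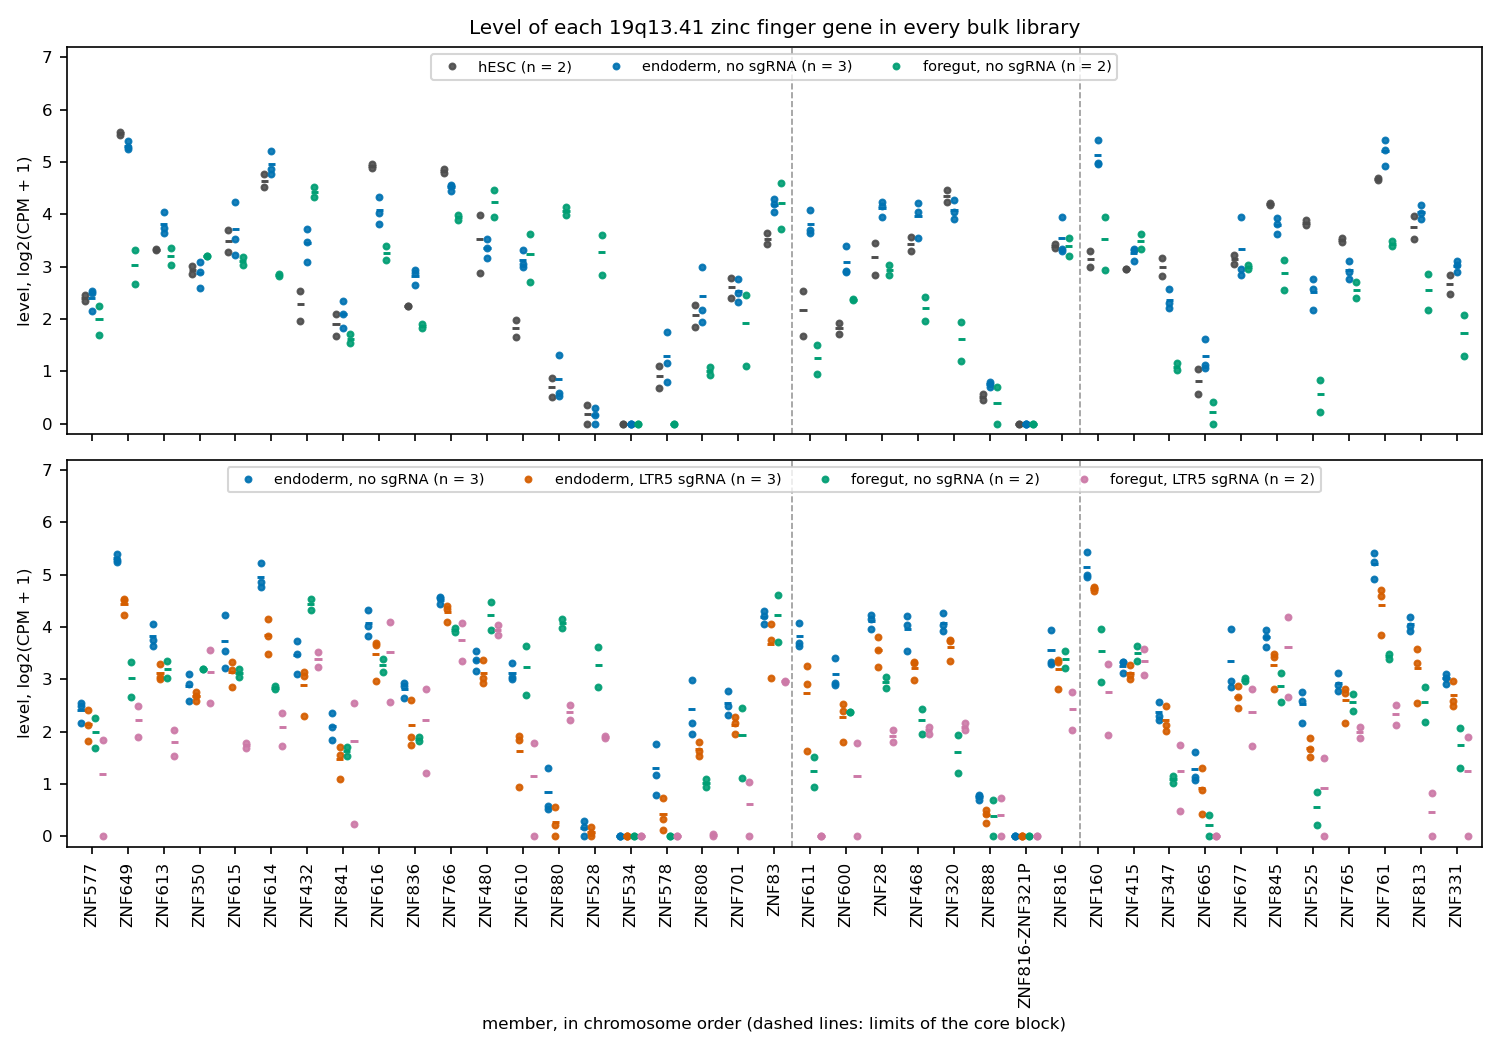
Level of each member in each bulk library, as log2 of CPM + 1, with members in chromosome order, points for libraries, lines for group means and dashed lines at the limits of the core. The upper panel shows hESC, endoderm control and foregut control, and the lower panel shows endoderm and foregut without and with the sgRNA; ZNF880 and ZNF528 stand out as high in foregut control and low in hESC and endoderm.

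Summed over the members, levels were highest in endoderm control. The sums were 351 and 386 CPM in the hESC libraries, 481, 413 and 389 in endoderm control, 221, 298 and 285 in endoderm sgRNA, 274 and 219 in foregut control, and 133 and 159 in foregut sgRNA. Every endoderm control library lay above every library of the other groups, and the libraries with the sgRNA lay below the controls of their own tissue without overlap. By block, the core averaged 53.4 ± 8.15 CPM in hESC, 79.0 ± 14.0 in endoderm control and 27.7 ± 5.64 in foregut control (SD, n = 2, 3 and 2). The telomeric flank averaged 114 ± 8.62, 140.6 ± 9.55 and 57.9 ± 6.01 CPM in the same groups, and the centromeric flank 201 ± 7.78, 208 ± 25.4 and 161 ± 26.9 CPM. In these bulk libraries fewer cells that express a gene and less RNA per cell cannot be told apart.

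**Figure D2:**
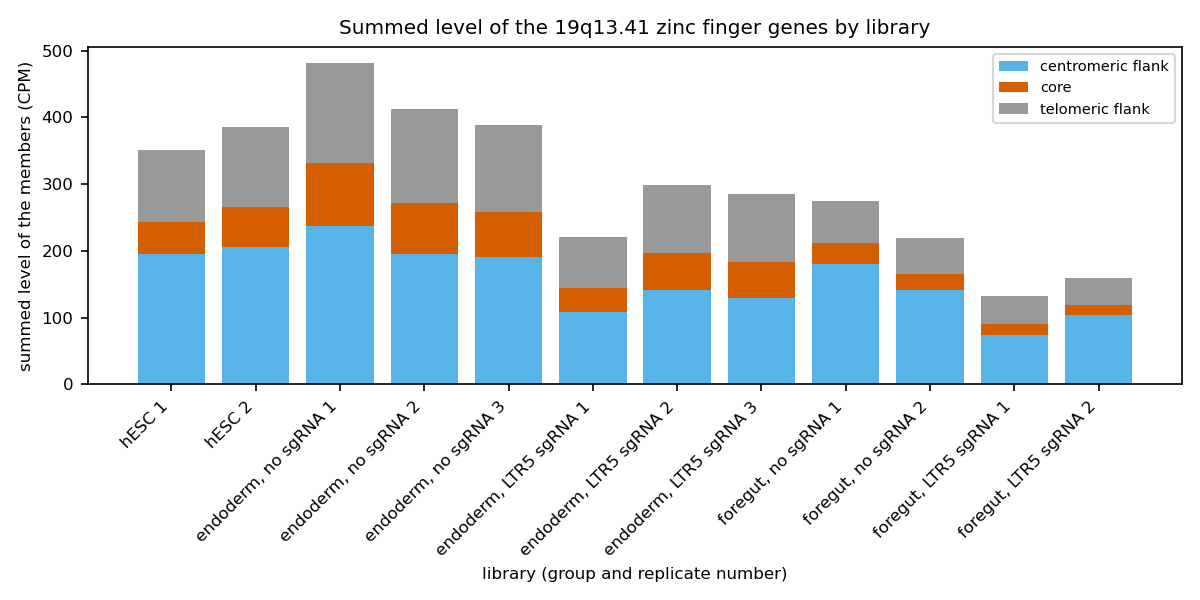
Summed CPM of the members in each of the 12 bulk libraries, stacked by block (centromeric flank, core, telomeric flank), with the axis starting at 0. The 3 endoderm control bars are the tallest, at 389 to 481 CPM, and the foregut sgRNA bars the shortest, at 133 and 159 CPM.

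Endoderm control was compared with hESC. The endoderm control labels name dCAS9-KRAB and the hESC labels do not, so differentiation and vector cannot be told apart. ZNF160 and ZNF611 showed the largest rises, and ZNF610, ZNF600, ZNF432 and ZNF28 also rose by over 2-fold. ZNF525 fell. Few members besides these moved far: the median log2 fold change over the 37 members tested was 0.36. Means were higher in endoderm for 25 of 37 members and lower for 12, where 51.6% and 48.4% of all genes tested were.

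ZNF160 (ENSG00000170949, chr19:53569859-53606687, minus strand) measured 7.005 and 8.80 CPM in hESC and 42.1, 30.8 and 30.2 CPM in endoderm control. All 3 endoderm libraries lay far above both hESC libraries, and the log2 fold change was 2.15 (SE 0.24, edgeR adjusted p = 4.82e-06). ZNF611 (ENSG00000213020, chr19:53206066-53238326, minus strand), the first core gene, measured 2.21 and 4.81 CPM in hESC and 15.9, 11.5 and 11.9 CPM in endoderm control. The groups did not overlap, and the log2 fold change was 1.93 (SE 0.33, edgeR adjusted p = 0.000232), or 2.60 without hESC replicate 2. ZNF600 (ENSG00000189190, chr19:53253195-53290060, minus strand), its core neighbour, measured 2.81 and 2.30 CPM in hESC and 9.57, 6.58 and 6.44 CPM in endoderm control, again without overlap. Its log2 fold change was 1.59 (SE 0.30, edgeR adjusted p = 0.000628).

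ZNF610 (ENSG00000167554, chr19:52839496-52871031, plus strand), in the centromeric flank, measured 2.16 and 2.96 CPM in hESC and 8.97, 7.28 and 7.0005 CPM in endoderm control. Its lowest endoderm library was above both hESC libraries, with a log2 fold change of 1.63 (SE 0.29, edgeR adjusted p = 0.000387). ZNF432 (ENSG00000256087, chr19:52534631-52598991, minus strand) measured 2.90 and 4.81 CPM in hESC and 12.3, 7.55 and 10.1 CPM in endoderm control. The groups were again apart, at a log2 fold change of 1.405 (SE 0.31, edgeR adjusted p = 0.00201), though ZNF841 exons overlap this gene. ZNF28 (ENSG00000198538, chr19:53300661-53360853, minus strand) measured 6.14 and 9.99 CPM in hESC and 17.8, 16.8 and 14.5 CPM in endoderm control, higher without overlap by a log2 fold change of 1.06 (SE 0.26, edgeR adjusted p = 0.00415). Without hESC replicate 1 both calls were lost, at 1.08 for ZNF432 and 0.74 for ZNF28. Without endoderm control replicate 1, ZNF28 stood at 0.99, under the fold limit, while ZNF616 and ZNF665 were called as well.

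ZNF525 (ENSG00000203326, chr19:53868946-53895470, plus strand) went the other way, at 12.9 and 13.8 CPM in hESC and 4.99, 5.80 and 3.50 CPM in endoderm control. It fell by 1.45 on the log2 scale (SE 0.26, edgeR adjusted p = 0.000399). ZNF616 also passed the adjusted p but not the fold limit, at −0.85, as did ZNF83 at 0.73, ZNF836 at 0.73 and ZNF761 at 0.58. ZNF649, high in both groups, measured 45.1 and 46.5 CPM in hESC and 38.0, 41.1 and 36.9 CPM in endoderm control. Its endoderm libraries were slightly the lower, with a log2 fold change of −0.21 that was not called. Of the other members the study names, ZNF468 (8.82 and 10.9 CPM in hESC, 17.6, 15.5 and 10.7 CPM in endoderm control), ZNF320 (17.9 and 21.0, then 18.3, 15.5 and 14.1 CPM) and ZNF808 (2.59 and 3.82, then 6.93, 2.85 and 3.50 CPM) overlapped between the groups and were not called.

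In all, 7 of 37 members (18.9%) were called by edgeR at adjusted p under 0.05 and a fold over 2, against 26% of all 20818 genes tested, so the share was below the background. Of the 7, 6 were higher (14.2% of all genes tested were called higher) and 1 was lower (11.8%). The median of 0.36 compares with 0.04 over all genes tested, and it was 0.24 without hESC replicate 1, 0.56 without hESC replicate 2 and 0.21 without endoderm control replicate 1. An unadjusted p under 0.05 was reached by 15 members, where 46.1% of all genes tested reached it, with 11 higher (23.8% of all genes) and 4 lower (22.3%). The groups did not overlap for 15 members that were higher (29.8% of all genes) and 7 that were lower (30.6%). Called members numbered 5 without hESC replicate 1 and 8 without endoderm control replicate 1, where 4006 of 20308 and 5544 of 20393 genes tested were called. By block the median was 0.30 in the centromeric flank, 0.73 in the core and 0.34 in the telomeric flank. With all 12 libraries in 1 fit, 4 members were called (ZNF432, ZNF611, ZNF28 and ZNF160) and 3690 of 23403 genes. The other 208 ZNF genes of chromosome 19 had a median of −0.13, with 18 called higher and 17 lower of 192 tested, and the 262 on other chromosomes −0.09, with 18 higher and 31 lower of 240 tested.

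**Figure D3:**
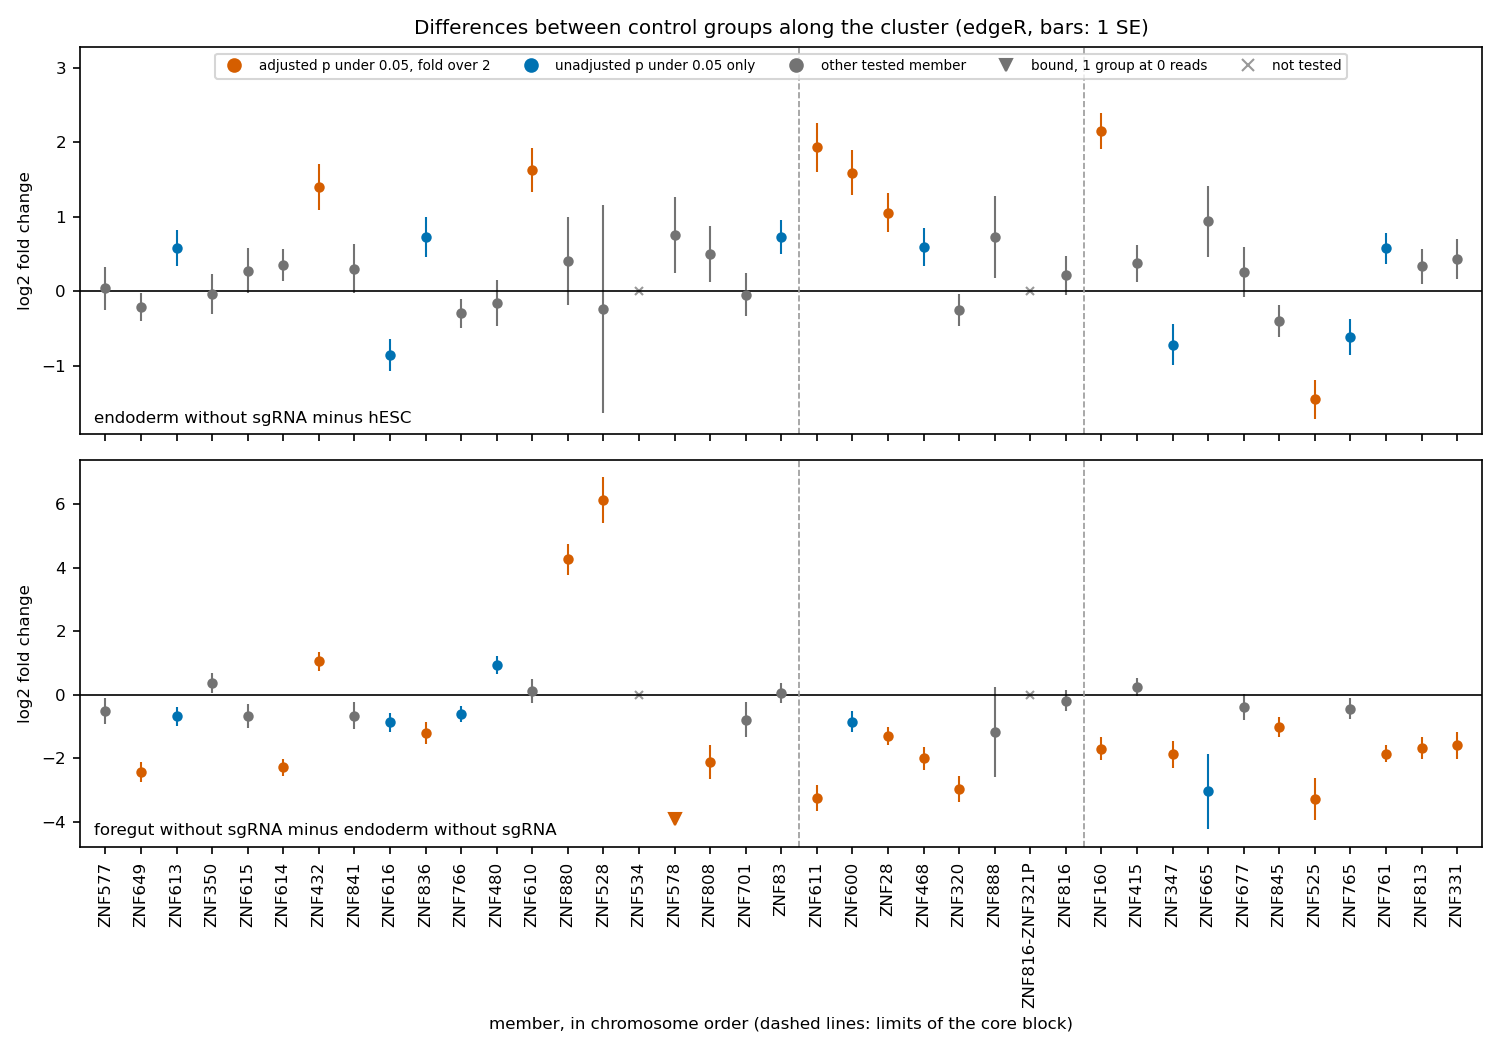
Log2 fold change of each member in chromosome order, with bars of 1 standard error, for endoderm control against hESC (upper panel) and foregut control against endoderm control (lower panel). Orange points passed adjusted p under 0.05 and a fold over 2, blue points an unadjusted p under 0.05 only, a triangle is a bound for a gene at 0 in 1 group, and crosses mark members not tested; 7 marks are orange above and 19 below.

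Foregut control cells held a different set of high members. ZNF880 and ZNF528, which sit side by side in the centromeric flank, were low in hESC and endoderm, ZNF528 near the floor, and higher in foregut. ZNF432 was also higher in foregut than in endoderm. Of the core, ZNF611, ZNF320, ZNF468 and ZNF28 were lower in foregut control than in endoderm control, as were ZNF649, ZNF614 and ZNF761, which had led the endoderm levels per kb.

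ZNF880 (ENSG00000221923, chr19:52873170-52889048, plus strand) measured 0.432 and 0.822 CPM in hESC, 0.499, 1.47 and 0.438 CPM in endoderm control, and 16.7 and 14.9 CPM in foregut control. ZNF528 (ENSG00000167555, chr19:52901102-52921665, plus strand) measured 0 and 0.288 CPM in hESC, 0, 0.230 and 0.125 CPM in endoderm control, and 11.2 and 6.21 CPM in foregut control. For both genes the foregut libraries alone were high. The log2 fold change over endoderm control was 4.25 (SE 0.50, edgeR adjusted p = 0.000272) for ZNF880 and 6.12 (SE 0.73, edgeR adjusted p = 0.000294) for ZNF528. The ZNF528 value rests on 5 and 2 reads in the 2 endoderm libraries that had any. Without endoderm control replicate 2 these values were 5.09 and 7.19.

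ZNF432 measured 19.1 and 22.1 CPM in foregut control, above all hESC and endoderm libraries, with a log2 fold change over endoderm control of 1.04 (SE 0.29, edgeR adjusted p = 0.0214). That call was lost without endoderm control replicate 2 (0.91) or replicate 3 (1.05). Against hESC the difference was larger, at 2.41 (SE 0.37, edgeR adjusted p = 0.00202). ZNF610, at 11.4 and 5.52 CPM in foregut control, spanned its endoderm values and was higher than in hESC by 1.72 (SE 0.48, edgeR adjusted p = 0.026), a call lost without hESC replicate 1 (1.51). It was also not called by limma-voom or with all 12 libraries in 1 fit. Without foregut control replicate 1 it was 1.11.

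Most called members were lower in foregut. ZNF649 (ENSG00000198093, chr19:52392488-52408293, minus strand) measured 8.995 and 5.34 CPM in foregut control, and ZNF614 (ENSG00000142556, chr19:52516018-52533493, minus strand) 6.04 and 6.28 CPM. Both lay under every hESC and endoderm control library, and they fell by 2.44 (SE 0.30, edgeR adjusted p = 0.000368) and by 2.29 (SE 0.28, edgeR adjusted p = 0.000323) from endoderm control on the log2 scale. ZNF611 measured 1.85 and 0.923 CPM in foregut control, below both hESC libraries, and fell by 3.25 from endoderm control (SE 0.42, edgeR adjusted p = 0.000454). ZNF320 (ENSG00000182986, chr19:53364104-53400946, minus strand) measured 17.9 and 21.0 CPM in hESC, 18.3, 15.5 and 14.1 CPM in endoderm control, and 2.83 and 1.31 CPM in foregut control. It was thus similar in hESC and endoderm and lower in foregut, by a log2 fold change of −2.96 from endoderm control (SE 0.41, edgeR adjusted p = 0.000649). ZNF468 (ENSG00000204604, chr19:53341263-53360902, minus strand) measured 8.82 and 10.9 CPM in hESC, 17.6, 15.5 and 10.7 CPM in endoderm control, and 4.38 and 2.90 CPM in foregut control. Its foregut libraries were the lowest of the 3 groups, at −2.01 from endoderm control (SE 0.36, edgeR adjusted p = 0.00268).

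ZNF525 measured 0.162 and 0.795 CPM in foregut control, so that its level stepped down from hESC to endoderm and again to foregut (log2 fold change from endoderm control −3.28, SE 0.67, edgeR adjusted p = 0.00509). ZNF160 measured 14.5 and 6.67 CPM in foregut control, under every endoderm library and around the hESC pair, and fell by 1.70 from endoderm control (SE 0.37, edgeR adjusted p = 0.00695). ZNF28, at 7.21 and 6.13 CPM, overlapped its hESC values (−1.30 from endoderm control, SE 0.28, edgeR adjusted p = 0.00669). ZNF600, at 4.16 and 4.21 CPM, lay under every endoderm control library and was not called. ZNF578 had 0 reads in all foregut libraries and was at least 14.99-fold lower than in endoderm control, taking the higher floor of the foregut control pair. ZNF808 (ENSG00000198482, chr19:53030905-53067717, plus strand) measured 2.59 and 3.82 CPM in hESC, 6.93, 2.85 and 3.50 CPM in endoderm control, and 0.909 and 1.13 CPM in foregut control. The foregut pair was the lowest, at −2.11 from endoderm control (SE 0.53, edgeR adjusted p = 0.0135), a call lost without endoderm control replicate 1 (−1.60). Leaving out foregut control replicate 1 gave −3.84 for ZNF611, −3.62 for ZNF320, −2.38 for ZNF160 and −2.60 for ZNF525, and leaving out replicate 2 gave −4.76 for ZNF525.

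The edgeR fit called 19 of 37 members (51.4%) between foregut and endoderm control, against 29% of all 21466 genes tested. Of these, 3 were higher (14.1% of all genes) and 16 lower (15% of all genes). Lower means were found for 29 members and higher for 8 (52.2% and 47.8% of all genes), and 25 passed an unadjusted p under 0.05 (44.5%), with 21 lower (24.2%) and 4 higher (20.3%). Without overlap 25 were lower and 6 higher (33.4% and 25.6% of all genes).

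Besides those described, ZNF761, ZNF813, ZNF347, ZNF331, ZNF836 and ZNF845 were lower, from −1.86 to −1.03. Of these 6, ZNF836, ZNF845 and ZNF331 lost their call without endoderm control replicate 1 (−1.09, −0.91 and −1.51), and so did ZNF347, ZNF836, ZNF845 and ZNF331 without replicate 2 (−1.71, −1.14, −1.09 and −1.57). ZNF836 and ZNF845 also lost it without replicate 3 (−1.30 and −1.02), and ZNF845 without foregut control replicate 1 (−0.76). ZNF331 was −2.21 without foregut control replicate 2. Called members numbered 16, 14 and 16 without endoderm control replicate 1, 2 and 3, and 21 without either foregut control. In the same fits 5125 of 21034, 4976 of 20972 and 5168 of 21201 genes were called, and 8096 of 20835 and 7580 of 20653 without foregut control replicate 1 and 2, so the calls over all genes moved as well. The median was −0.88, against −0.09 over all genes tested, and −0.67, −1.30 and −1.67 in the centromeric flank, core and telomeric flank. Other chromosome 19 ZNF genes had a median of −0.36, with 26.2% of 195 called, and those of other chromosomes −0.33, with 26.6% of 241 called. This comparison shares its endoderm controls with the one before, and its deposit date differs between the groups.

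Against hESC, 16 of 37 members (43.2%) were called in foregut control, 4 higher and 12 lower, where 32.7% of all 21191 genes were called (16% higher, 16.6% lower). ZNF880, ZNF528, ZNF432 and ZNF610 were the 4 higher, at 4.64, 5.85, 2.41 and 1.72. ZNF525 had the lowest fitted value among members with reads in both groups, at −4.75 (SE 0.66, edgeR adjusted p = 0.00139), followed by ZNF320 at −3.24, ZNF649 at −2.68 and ZNF347 at −2.63. ZNF578 was at least 9.02-fold lower. ZNF614, ZNF616, ZNF845, ZNF468, ZNF813, ZNF761 and ZNF765 were lower, at −1.96 to −1.09. Calls were lost without hESC replicate 1 for ZNF578, ZNF468 (−1.58), ZNF761 (−1.30) and ZNF765 (−1.12). Without hESC replicate 2 they were lost for ZNF578, ZNF468 (−1.28), ZNF845 (−1.44), ZNF765 (−1.05) and ZNF813 (−1.11), and ZNF528 had 0 reads left in hESC. ZNF528 was 4.90 without hESC replicate 1. Without foregut control replicate 1, ZNF320 was −3.88 and ZNF525 −4.05, and without replicate 2, ZNF525 was −6.28 while ZNF765 (−0.87) and ZNF813 (−0.97) were under the fold limit. Lower means were found for 27 members and higher for 10 (50.1% and 49.9% of all genes), and 19 passed an unadjusted p under 0.05 (45%), with 15 lower (23.7%) and 4 higher (21.3%). Without overlap 21 were lower and 8 higher (38.8% and 30.7% of all genes). Called members numbered 11 without either hESC library, 20 without foregut control replicate 1 and 19 without replicate 2. Over all genes the same fits called 5052 of 20643 and 5101 of 20612 without hESC replicate 1 and 2, and 10366 of 20470 and 9774 of 20243 without foregut control replicate 1 and 2. The median was −0.51, against −0.00 over all genes tested, −0.93 without foregut control replicate 1 and −0.31 without replicate 2. Other chromosome 19 ZNF genes had a median of −0.52, with 28% of 193 called, and those of other chromosomes −0.41, with 32.6% of 242 called, so the median shift was not particular to the members.

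The sgRNA in endoderm asked which members differ when LTR5 elements are targeted. All 37 members tested had a lower mean in endoderm sgRNA than in endoderm control, where 52.7% of all genes tested did and 47.3% had a higher one, and 23 of 37 were lower in all 3 sgRNA libraries than in all 3 controls, where 5.94% of all genes tested were (4.34% higher, with 0 members). No member was called by edgeR with its filter of 3 reads, while DESeq2 called 2. The lowest unadjusted p-values belonged to ZNF610, ZNF614 and ZNF649, all in the centromeric flank and not in the core.

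ZNF610 measured 8.97, 7.28 and 7.0005 CPM in endoderm control and 0.923, 2.58 and 2.77 CPM in endoderm sgRNA. The highest library with the sgRNA was well under the lowest control, and the log2 fold change was −1.86 (SE 0.36, edgeR adjusted p = 0.199). ZNF614 measured 36.1, 28.0 and 26.3 CPM in control and 10.2, 13.2 and 16.9 CPM with the sgRNA, again apart, at −1.14 (SE 0.23, edgeR adjusted p = 0.199). ZNF649 measured 38.0, 41.1 and 36.9 CPM in control and 21.8, 22.1 and 17.8 CPM with the sgRNA, and its spread within groups was small beside the gap between them (−0.89, SE 0.18, edgeR adjusted p = 0.199). By DESeq2, ZNF610 and ZNF614 were called.

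ZNF525 measured 4.99, 5.80 and 3.50 CPM in control and 1.85, 2.68 and 2.18 CPM with the sgRNA (−1.06, SE 0.30, edgeR adjusted p = 0.467). ZNF613 (ENSG00000176024, chr19:52430400-52452012, plus strand) measured 15.6, 12.4 and 11.4 CPM in control and 8.77, 7.22 and 7.06 CPM with the sgRNA (−0.76, SE 0.23, edgeR adjusted p = 0.546). Both were lower without overlap, and neither was called. ZNF468 measured 17.6, 15.5 and 10.7 CPM in control and 6.92, 8.99 and 8.99 CPM with the sgRNA (−0.79, SE 0.25, edgeR adjusted p = 0.583). ZNF611 measured 15.9, 11.5 and 11.9 CPM in control and 2.11, 6.502 and 8.49 CPM with the sgRNA (−1.18, SE 0.38, edgeR adjusted p = 0.613). In both genes the groups were apart, and in ZNF611 replicate 1 of the sgRNA group was well under the other two. ZNF600 measured 9.57, 6.58 and 6.44 CPM in control and 2.51, 4.78 and 4.29 CPM with the sgRNA (−0.94, SE 0.30), and ZNF28 measured 17.8, 16.8 and 14.5 CPM and 8.44, 13.1 and 10.8 CPM (−0.58, SE 0.23). ZNF320 measured 18.3, 15.5 and 14.1 CPM in control and 9.16, 12.5 and 12.3 CPM with the sgRNA (−0.47, SE 0.22). ZNF808 measured 6.93, 2.85 and 3.50 CPM in control and 1.91, 2.49 and 2.1006 CPM with the sgRNA (−1.001, SE 0.36), so that its gap was narrow except for control replicate 1.

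Members that had risen into endoderm were not the only ones lower. ZNF160, the largest rise, measured 42.1, 30.8 and 30.2 CPM in control and 24.9, 25.7 and 26.3 CPM with the sgRNA (−0.40, SE 0.19), and ZNF415 was the least different, at −0.12. ZNF813 (ENSG00000198346, chr19:53970987-53999509, plus strand) measured 15.3, 17.2 and 14.1 CPM in control and 4.88, 8.94 and 10.9 CPM with the sgRNA (−0.89, SE 0.28, edgeR adjusted p = 0.598). ZNF761 (ENSG00000160336, chr19:53935237-53965116, plus strand) measured 29.4, 41.7 and 36.6 CPM in control and 13.3, 23.2 and 24.95 CPM with the sgRNA (−0.78, SE 0.25, edgeR adjusted p = 0.598). Both were apart from control and not called. ZNF578 had the lowest fitted value, at −1.94 (SE 0.62), on 48, 16 and 20 reads in control and 4, 14 and 1 with the sgRNA. Over the alternatives run it ranged from −2.92 to −1.37, and ZNF610 from −2.08 to −1.50, so ZNF578 was not the lowest in all of them.

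Called members in edgeR numbered 0 of 37, where 0.0343% of all 20407 genes tested were called (0.0049% higher, 0.0294% lower), and 18 passed an unadjusted p under 0.05, all lower, where 5.17% of all genes did (2.52% lower, 2.65% higher). Limma-voom also called 0 and DESeq2 called 2, where 1 and 47 of 20407 genes were called. Without a filter beyond 1 read edgeR called 4, ZNF610, ZNF614, ZNF578 and ZNF611, where 186 of 25656 genes were called. The unadjusted count was 11 without endoderm control replicate 1, the control with the highest member sum, and no share of all genes is given for that fit. By block the median was −0.76 in the centromeric flank, −0.79 in the core and −0.55 in the telomeric flank, beside −0.02 over all genes tested. Of 8 other protein-coding genes of the interval that were tested, 5 had a lower mean (median −0.19) and 0 passed the unadjusted p. Other chromosome 19 ZNF genes had a median of −0.11, 123 of 190 with a lower mean and 3 lower at unadjusted p, and those of other chromosomes −0.02, 139 of 239 and 3. Pluripotency markers also varied here. NANOG measured 27.4, 30.4 and 21.6 CPM in control and 5.80, 18.1 and 13.6 CPM with the sgRNA. DPPA4 (128, 105 and 88.9 against 65.5, 83.2 and 74.9 CPM) and PRDM14 (11.6, 18.6 and 12.3 against 6.92, 8.89 and 6.72 CPM) were likewise lower without overlap, and the other genes of that list overlapped. The 10 markers summed to 2835, 2586 and 2221 CPM against 2018, 2320 and 1852 CPM. POU5F1, TDGF1 or LIN28A was the most abundant and none was under 1 CPM. The 8 endoderm markers summed to 7057, 6351 and 6094 CPM with the sgRNA, above control, and most of the sum was CER1, whose values overlapped (3962, 3553 and 4016 CPM in control, 5368, 4368 and 3891 CPM with the sgRNA). Of the 6 paraxial and somitic markers only RIPPLY1 was higher without overlap, at 4.19, 3.04 and 4.25 CPM in control and 7.71, 6.502 and 6.47 CPM with the sgRNA. The 9 mesoderm markers overlapped in sum (1199, 759 and 1005 CPM in control, 1330, 1228 and 927 CPM with the sgRNA). Of these, HAND1 (13.7, 11.7 and 25.1 against 52.3, 36.2 and 47.4 CPM) and FOXF1 (1.25, 0.599 and 1.06 against 5.41, 2.53 and 2.94 CPM) were higher without overlap and the other 7 overlapped. The part of these markers in the member values was not tested. The control libraries are those of the comparison with hESC, so values of both comparisons stand side by side only.

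**Figure D4:**
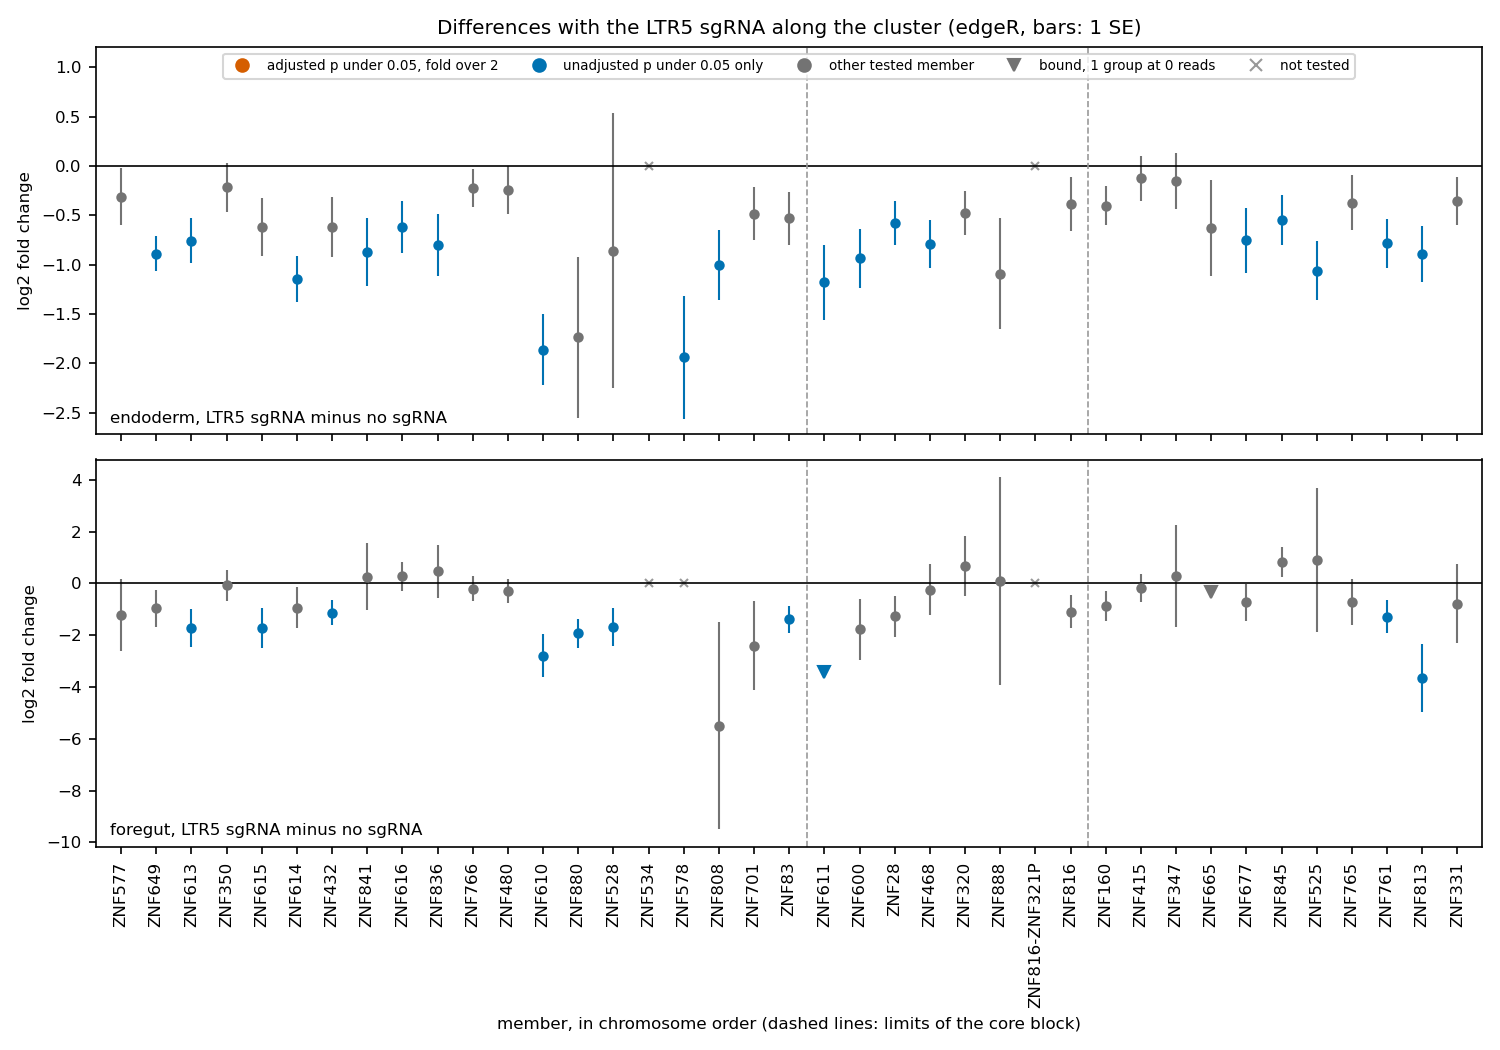
Log2 fold change of each member in chromosome order, with bars of 1 standard error, for the sgRNA in endoderm (upper panel) and in foregut (lower panel), with the colours and marks used for the controls. Every endoderm point lies under 0, no point in either panel is orange, and the foregut bars are wider; the ZNF808 point in foregut rests on 1 read in the sgRNA libraries.

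With the sgRNA in foregut, 28 of 36 members had a lower mean, and 8 a higher one, where 53.8% and 46.2% of all genes tested did. ZNF880 and ZNF610 had the lowest unadjusted p-values, and ZNF611 had 0 reads in both sgRNA libraries. The spread between foregut libraries was wide, and 0 of 36 members were called. A block that pairs each control with the sgRNA library of the other replicate number, added after the data were seen, called ZNF610 and ZNF880 and 74 of 20044 genes, while a block of equal replicate numbers called 0 members and 19 genes.

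ZNF880 measured 16.7 and 14.9 CPM in foregut control and 3.66 and 4.67 CPM in foregut sgRNA, apart in both pairs (−1.92, SE 0.56, edgeR adjusted p = 0.195). ZNF610 measured 11.4 and 5.52 CPM in control and 0 and 2.45 CPM with the sgRNA (−2.80, SE 0.83, edgeR adjusted p = 0.226). The 0 and 56 reads of the sgRNA pair show how far its libraries differed. ZNF611 measured 1.85 and 0.923 CPM in control and 0 in both sgRNA libraries, at least 10.6-fold lower against the higher floor of the pair, and was not called by edgeR, limma-voom or DESeq2. ZNF813 (−3.66), ZNF83 (−1.39), ZNF432 (−1.13), ZNF528 (−1.68), ZNF613 (−1.72), ZNF615 (−1.72) and ZNF761 (−1.30) completed the 10 members under an unadjusted p of 0.05. Without foregut control replicate 1, ZNF83 was −0.84, and without replicate 2 it was −1.79. ZNF610 was −1.78 without foregut sgRNA replicate 1 and ZNF813 −2.68 without replicate 2, and with the other sgRNA library left out each was at 0 in the library kept. ZNF432, high in foregut control, measured 10.4 and 8.43 CPM with the sgRNA, and ZNF528 measured 2.68 and 2.75 CPM, both below the control pair.

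The core and neighbouring genes the study names were less clear here. ZNF600 measured 4.16 and 4.21 CPM in control and 0 and 2.45 CPM with the sgRNA (−1.78, SE 1.17), ZNF28 7.21 and 6.13 CPM and 2.50 and 3.06 CPM (−1.27, SE 0.79), and ZNF468 4.38 and 2.90 CPM and 3.26 and 2.88 CPM (−0.25, SE 0.98). The ZNF468 groups overlap and the other 2 do not. The ZNF600 fold depends on foregut sgRNA replicate 1, which had 0 reads where replicate 2 had 56. ZNF808 had 28 and 44 reads in control and 1 and 0 with the sgRNA, too few for a fold. ZNF320 was the 1 member higher without overlap, at 2.83 and 1.31 CPM in control and 3.48 and 3.06 CPM with the sgRNA (0.66, SE 1.16). ZNF649 measured 8.995 and 5.34 CPM in control and 4.64 and 2.71 CPM with the sgRNA (−0.97, SE 0.73), and ZNF614 6.04 and 6.28 CPM and 2.32 and 4.15 CPM (−0.93, SE 0.78), both lower and neither called.

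By edgeR 0 members were called, where 0.165% of 20044 genes tested were (0.0499% higher, 0.115% lower), and limma-voom and DESeq2 also called 0. An unadjusted p under 0.05 was reached by 10 of 36, all lower, where 3.49% of all genes reached it (1.98% lower, 1.51% higher). Without overlap 19 of 36 were lower and 1 was higher, where 15.7% and 11.7% of all genes were. The unadjusted count moved widely when 1 foregut library was left out, and no share of all genes is given for those fits. Members called were 4 without foregut sgRNA replicate 1 (ZNF577, ZNF701, ZNF813 and ZNF331, each at 0 in the library kept) and 2 without replicate 2 (ZNF610 and ZNF600, likewise), where 527 of 19218 and 74 of 19794 genes were called. In these fits 1 sgRNA library is left and is assumed to vary like the controls. With all 12 libraries in 1 fit 4 were called (ZNF613, ZNF808, ZNF611 and ZNF813), and 209 of 23403 genes. The median was −0.95, or −0.90 with members at 0 set to their bound, against −0.06 over all genes tested, and −1.18, −1.10 and −0.74 by block. Other chromosome 19 ZNF genes had a median of −0.23, 122 of 191 with a lower mean, and those of other chromosomes 0.02, 115 of 236. The 8 foregut markers summed to 393 and 319 CPM in control and 235 and 237 CPM with the sgRNA, with FOXA1 the most abundant in each, and PDX1, a pancreatic progenitor factor, measured 27.0 and 24.7 CPM and 2.79 and 7.73 CPM. The 8 hepatic markers, led by TTR, summed to 2969 and 3508 CPM in control and 3284 and 2639 CPM with the sgRNA, with ALB at 0 in control, though AFP measured 187.0 and 4.82 CPM in control and 0.0363 and 0 CPM with the sgRNA, and FGB 88.8 and 17.4 CPM and 5.66 and 7.25 CPM. Of the fibroblast, paraxial and mesoderm lists, COL1A1 (246 and 234 against 364 and 304 CPM), COL1A2 (165 and 189.6 against 209.5 and 209.9 CPM), TCF15 (2.66 and 1.87 against 10.8 and 10.6 CPM), RIPPLY1, KDR (22.02 and 35.3 against 52.5 and 42.9 CPM), TWIST1 and MIXL1 were higher with the sgRNA without overlap. HAND1 was lower, and the other genes of these lists overlapped or were at 0. Among the endoderm and extraembryonic markers, GATA4 (224 and 196 against 82.1 and 123 CPM), SOX17 (23.4 and 24.7 against 8.27 and 21.1 CPM) and CDX2 (24.5 and 12.3 against 1.67 and 3.76 CPM) were lower without overlap. CGA and TFAP2A, low in control, were at 0 with the sgRNA. GSC was higher (0.162 and 0.821 against 0.979 and 4.63 CPM), and the other genes overlapped. The part of these markers in the member values was not tested.

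Whether the sgRNA effect differed between the tissues was tested as an interaction over the 10 endoderm and foregut libraries. By edgeR 0 of 37 members passed an adjusted p of 0.05, where 0.194% of 22708 genes did (0.0528% higher, 0.141% lower), and 4 passed an unadjusted p under 0.05, where 8.23% of all genes did (3.38% higher, 4.85% lower). The fitted value was negative for 23 of 37 members and positive for 14, where 53.2% and 46.8% of all genes were. The 4 were ZNF611, ZNF808 and ZNF813, lower in foregut with the sgRNA relative to endoderm, and ZNF845, higher. ZNF611 had an adjusted p of 0.121 in edgeR and passed in DESeq2, the 1 member called there, and in edgeR without a filter beyond 1 read, where 237 of 22708 and 139 of 26832 genes passed. Limma-voom called 0 members and 56 genes. Both foregut sgRNA libraries had 0 reads for it, so the fitted interaction is no bound. Without foregut sgRNA replicate 1, 5 members passed (ZNF577, ZNF701, ZNF845, ZNF813 and ZNF331), and without replicate 2, 2 passed (ZNF610 and ZNF600), where 805 of 22285 and 99 of 22585 genes passed.

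Distance from the nearest LTR5 integrant was set beside these values. In endoderm the median log2 fold change with the sgRNA was −0.79 for 16 tested members with an LTR5 in the body, −0.76 for 9 within 10 kb, −0.38 for 6 within 50 kb, −0.38 for 4 within 100 kb and −0.71 for 2 beyond. ZNF836 and ZNF665, the 2 beyond 100 kb, measured −0.80 and −0.62. In foregut the medians in the same order were −1.27 over 15 members, −1.10, −0.54 and 0.05. Beyond 100 kb ZNF836 was at 0.47, and ZNF665, with 0 and 13 reads in control and 0 in both sgRNA libraries, gave no usable fold. From hESC to endoderm they were 0.54, 0.21, 0.36, −0.23 and 0.84. By distance from LTR5B alone, on which the sgRNA was designed, the endoderm medians with the sgRNA were −0.78 over 13 members with 1 in the body and −0.89 over 9 within 10 kb. They were −0.44 over 8 within 50 kb, −0.38 over 4 within 100 kb and −0.75 over 3 beyond. Members share integrants and bands are small, so no test was made over members.

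There were few reads in LTR5 integrants of the interval, where only uniquely mapped reads were counted. Reads that match several copies are thus missing, so few reads do not show that the integrants were silent. Only 10 of 49 had a read in any library. Summed over the 49, counts scaled as CPM came to 0.995 and 0.699 in hESC, 0.897, 1.38 and 0.938 in endoderm control, 0.989, 1.0996 and 1.68 in endoderm sgRNA, 4.71 and 3.00 in foregut control, and 2.28 and 2.75 in foregut sgRNA. Without the 5 integrants that overlap exons they came to 0.303 and 0.0822 in hESC, 0.499, 0.507 and 0.500 in endoderm control, 0.198, 0.430 and 0.672 in endoderm sgRNA, 4.71 and 2.15 in foregut control, and 1.959 and 0.481 in foregut sgRNA. The endoderm groups overlapped, with an exact 2-sided permutation p of 0.5, where 3 against 3 libraries cannot go below 0.1. The log2 difference of 0.23 turned to −0.21 without integrants that overlap exons, and to −0.0379 without endoderm sgRNA replicate 3. Much of the signal in foregut control lay in an LTR5B in the ZNF816-ZNF321P body (chr19:53447835-53448814), which held 125 and 84 reads in foregut control, against 1 to 11 in each hESC and endoderm library, and 39 and 11 in foregut sgRNA. Foregut sgRNA replicate 2 had most of its reads, 52, in an LTR5_Hs that overlaps an exon (chr19:53061950-53062914), where the other libraries held 0 to 33.

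In gastruloids, 36 of 39 members were in the table of 17493 genes and all 36 had at least 1 UMI (unique molecular identifier, a counted RNA molecule). ZNF528, ZNF534 and ZNF816-ZNF321P were not in that table. ZNF83, ZNF331 and ZNF611 had the most UMIs, and ZNF841 the fewest. After filtering, 3422 of 3646 nuclei were kept, with a median of 16302 UMIs. Members held 22350 UMIs, or 379 CPM (UMIs scaled by the total of the nuclei; 95% Poisson interval 374 to 384), and 95.6% of the nuclei had a UMI of at least 1 member. Counting error alone enters these intervals, as there is 1 preparation and no replicate.

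ZNF83 measured 60.1 CPM (58.1 to 62.1) and was seen in 54.9% of nuclei. ZNF331 measured 41.4 (39.8 to 43.1), seen in 39.3%, and ZNF611 34.8 (33.3 to 36.3), seen in 37.7%. All other members were lower, led by ZNF766 at 22.3 (21.1 to 23.6), ZNF480 at 18.4 and ZNF160 at 17.0, down to ZNF841 at 0.814 (0.6002 to 1.08). Of the other members the study names, ZNF808 measured 9.04, ZNF28 7.56, ZNF320 7.02, ZNF600 5.29 and ZNF468 3.19 CPM. ZNF880 at 2.19 and ZNF578 at 2.26 were among the low members, and both lacked a promoter peak. Nuclear counts include introns, so these values rank UMIs and not levels per length, and they are not on the scale of the bulk CPM. The median member had 416 UMIs and was seen in 10.9% of nuclei, against 937 UMIs and 20.2% for all genes of the table. No cell type known to lack these genes was at hand, so the share that free RNA gives is unknown. Shares also grow with depth: among the 3197 nuclei thinned to 5000 UMIs the median member was seen in 3.38%, against 11.4% in the same nuclei before thinning.

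Clustering without the members gave 10 clusters. By markers, cluster 1 was axial-like, with all 5 axial markers highest there including CHRD, cluster 2 was mesoderm-like, with TBX6 among its leading genes and 4 of 8 mesoderm markers highest there, and cluster 6 was paraxial- or somitic-like, with PCDH8 and RIPPLY1. The mesoderm markers summed to more in cluster 1 (361 CPM, with TBXT the most abundant) than in cluster 2 (305 CPM). The rest are called by leading genes. Members summed to 317 CPM (306.8 to 328) in axial-like cluster 1, the lowest, and to 454 (436.4 to 472.7) in cluster 4, led by EDNRA and IGFBP5, the highest. Mesoderm-like cluster 2 held 352 and paraxial-like cluster 6 held 348 CPM. ZNF83 followed this order, from 38.5 in cluster 1 to 84.9 in cluster 4, and at equal depth the share of nuclei with it ran from 14.8% to 33.2%. ZNF331 was highest in cluster 8, led by APOLD1 and FST, at 68.2 CPM. ZNF611 ranged from 27.3 in cluster 6 to 53.3 in cluster 9, the smallest cluster with 33 nuclei. The clusters come from the same nuclei and preparation, so their differences were described and not tested.

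**Figure D5:**
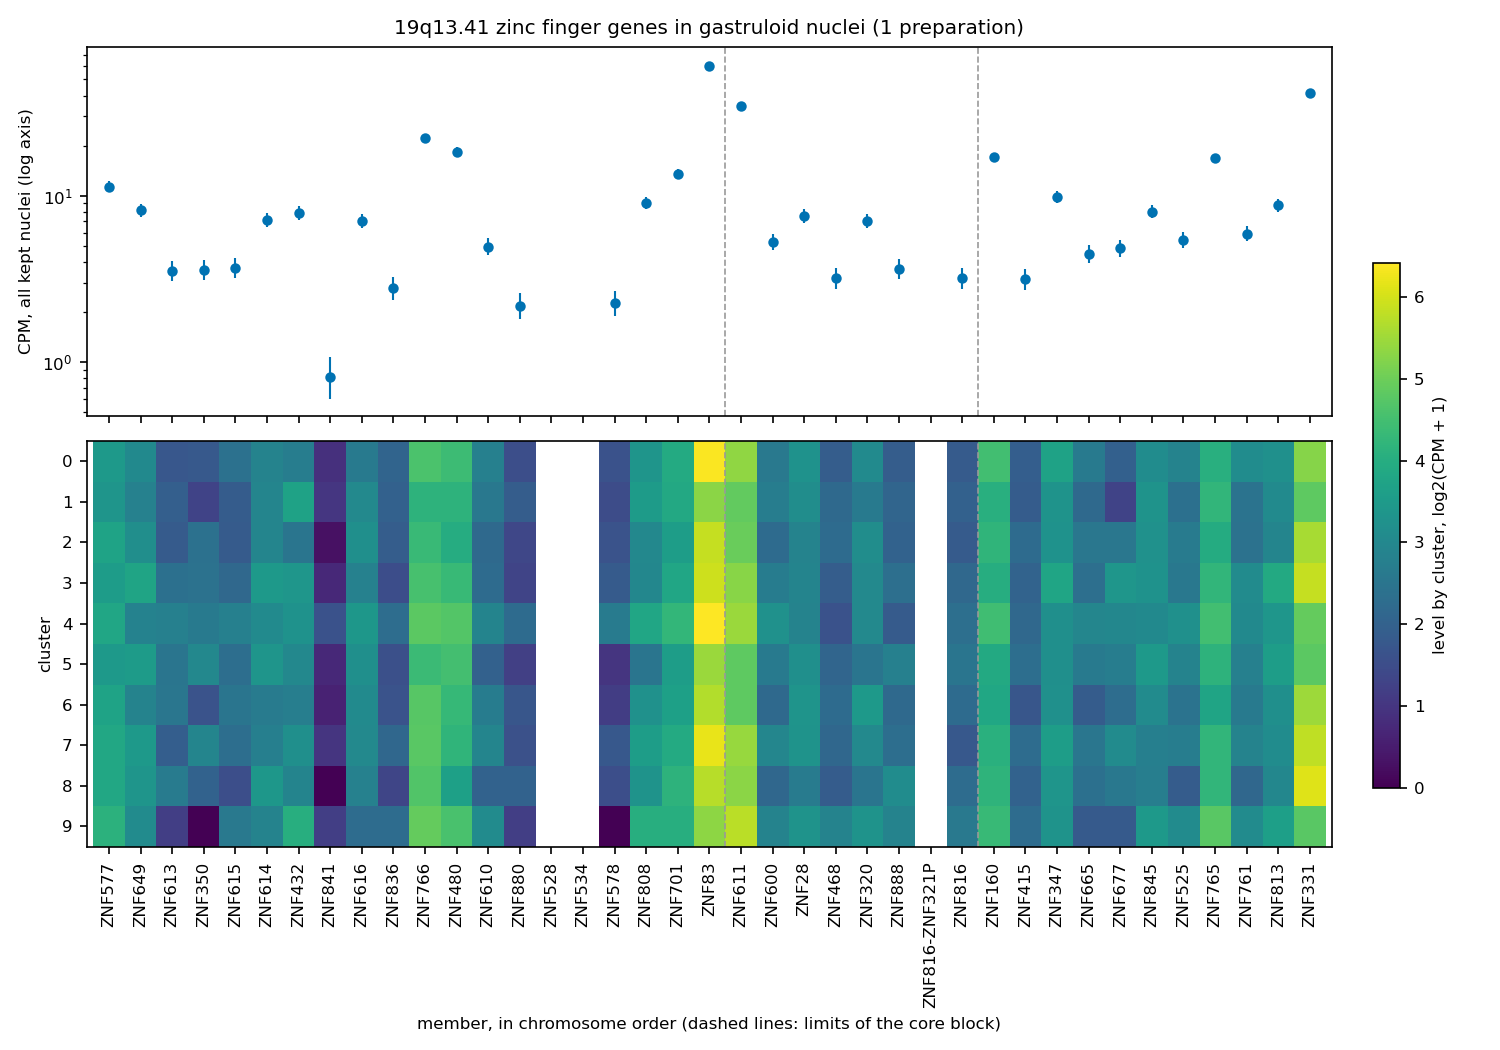
CPM of each member over all kept gastruloid nuclei with 95% Poisson intervals on a log axis (upper panel), and log2 of CPM + 1 by cluster as a heat map (lower panel), with members in chromosome order. ZNF83, ZNF331 and ZNF611 are the highest over all nuclei, at 60.1, 41.4 and 34.8, and also stand out across the clusters.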

How the data were processed

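The authors deposited counts per gene and per TE integrant from reads with a unique position (HISAT2 on hg19, featureCounts), a table of UMI counts per nucleus (Cell Ranger, hg38) and accessible peaks, which are intervals of another kind than counts. Members were found by symbol, gene type and position in GENCODE v44lift37. Members and lists were chosen with earlier results of these data known.

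Each comparison was fitted with the libraries of its own groups in edgeR 4.0.16 (quasi-likelihood F test, TMM) on genes with at least 3 reads in 1 library. P-values were adjusted by Benjamini-Hochberg over all genes tested, and a gene was called at adjusted p under 0.05 and a fold over 2. Limma 3.58.1 voom and DESeq2 1.42.0 served as alternatives (R 4.3.3). Where leaving out a library left 1 in a group, that library was assumed to vary like the others of the fit. The code was tested on simulated data. Genes were named when called. Where under 10 were, those with the smallest unadjusted p under 0.05 were added up to 10. The 6 members the study names and the 5 highest per kb were added too, though not with a fold in every comparison. Lists beside the members were other protein-coding genes of the interval, other ZNF genes, 18 cofactors and markers.

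Nuclei with under 1000 UMIs, under 200 genes or over 25% mitochondrial UMIs were removed. The 70 nuclei called doublets (2.05%) were kept, 27 of them in cluster 1 and 23 in cluster 3. The rest were clustered with scanpy 1.11.5 on 2000 variable genes (30 components, 15 neighbours, Leiden resolution 0.5), leaving members out.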

Additional observations from a re-analysis of the deposited data

Results flagged for a closer look

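ZNF320 drew attention because its libraries with the sgRNA were all lower than the controls in endoderm and all higher than the controls in foregut. It was the 1 member of 36 higher without overlap in foregut, where 11.7% of all genes tested were. In endoderm it was 1 of 23 members lower without overlap, where 5.94% of all genes tested were. The share of all genes with both patterns is not given. The log2 fold change with the sgRNA was −0.47 in endoderm and 0.66 in foregut, and the fitted difference between the tissues was 1.12. The edgeR test of that difference did not pass, with an adjusted p of 0.613 over all genes tested. Foregut levels were 1.31 to 3.48 CPM, low beside the 9.16 to 18.3 CPM of endoderm, and rest on 2 libraries per group. Foregut control replicate 1, at 2.83 CPM, lay close to the sgRNA libraries at 3.48 and 3.06 CPM. The foregut value thus depends on control replicate 2, at 1.31 CPM. The cause was not tested.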

How the results depend on the processing

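Alternatives were run for each result, some of them added after the data were seen: the crossed replicate block, and fits with only the replicate numbers both groups have. Of the values for named members, 892 of 956 kept their direction and stayed called or stayed not called, and 0 turned direction. The 892 include 135 values for the sgRNA in endoderm, 123 for it in foregut and 68 for the interaction. No named member was called in these comparisons, so those values only stayed not called. Named members were picked from these data by call or smallest unadjusted p, so this count does not show robustness. The cause of the differences between alternatives was not tested.

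From hESC to endoderm, all 12 libraries in 1 fit called 4 members, and 5 passed the unadjusted p there. In the fit of the 2 groups alone, 15 passed on the unadjusted p. Leaving out 1 library moved the median between 0.21 and 0.56, and the core alone gave 0.73.

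For the sgRNA in endoderm, DESeq2 called 2 members, no filter beyond 1 read 4, and the unadjusted p 18. That unadjusted count was 8 with all 12 libraries in 1 fit and 11 to 20 when 1 library was left out. For the alternative fits of any comparison, no share of all genes at the unadjusted p is given. Those counts thus have no background beside them.

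For the sgRNA in foregut, called members numbered 4 with all 12 libraries in 1 fit, 2 with the crossed replicate block (ZNF610 and ZNF880), 0 to 4 when 1 library was left out, and 10 by unadjusted p. The median was −1.11 with limma-voom, −1.09 with the replicate block, −1.11 with it crossed and −1.10 in the core, and ran from −1.40 to −0.81 when 1 library was left out. The unadjusted count was 16 with all 12 libraries in 1 fit and 6 with the replicate block, and it moved widely when 1 library was left out. No share of all genes at the unadjusted p is given for these fits. Calls over all genes moved as well, to 209 of 23403 in the fit of all 12 libraries and 19 of 20044 with the replicate block.

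For foregut against endoderm control, the median was −1.04 with limma-voom, −1.05 with the replicate block and −1.30 in the core, and −0.99 to −0.68 when 1 library was left out. Against hESC it was −0.94 with limma-voom, −0.94 with the replicate block and −0.93 to −0.31 when 1 library was left out. In both, the median over all genes moved too, to −0.22 and −0.18 with limma-voom.

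The interaction was called for 1 member by DESeq2 (237 of 22708 genes), 1 without a filter beyond 1 read (139 of 26832 genes), 0 to 5 when 1 library was left out and 4 by unadjusted p. The log2 difference of reads in LTR5 integrants of the interval with the sgRNA in endoderm turned to −0.21 without integrants overlapping an exon, and ran from −0.0379 to 0.45 when 1 library was left out. The median share of nuclei was 11.4% with no thinning.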

Other observations

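The 18 cofactors of KRAB zinc finger repression that were matched had a median log2 fold change of −0.18 from hESC to endoderm, 0.01 with the sgRNA in endoderm and −0.03 with it in foregut, with 0 passing an unadjusted p in the latter comparisons. In foregut control their median was −0.20 against endoderm control and −0.56 against hESC. DNMT3B, a DNA methyltransferase, fell by 2.45 from hESC to endoderm and by 3.43 from endoderm to foregut control on the log2 scale. TRIM28, the partner of the KRAB domain, averaged 1174 ± 21.4 CPM in hESC, 716 ± 88.1 CPM in endoderm control and 647 ± 198 CPM in foregut control (SD, n = 2, 3 and 2). From hESC to endoderm control, 10 of the 18 cofactors had a lower mean, where 48.4% of all genes tested did. Others had a higher mean, among them SETDB1 (42.8 ± 0.442, then 61.3 ± 3.44 CPM) and HDAC1 (64.8 ± 6.68, then 120.1 ± 1.55 CPM).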
